A study of Danio rerio with 14 samples.

Results

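Ventricles of non-transgenic (NTG) zebrafish, the control animals of a study of human TMEM43 variants, are described here on their own. They are represented by 3 of the 14 RNA-seq libraries of the series, chosen by their label, and no transgenic library enters any value. NTG 4 came from fish labelled 21 months old, and NTG 2 and NTG 3 came from fish labelled 5 months old, whereas the text of the study describes the RNA-seq fish as 5 months old. All 3 are labelled as wild-type fish of strain TL1 without treatment, and each library holds RNA from a pool of up to 7 excised ventricles, so the spread between libraries is one between pools and not between animals. The labels call the tissue heart and the methods call it ventricle. The 21-month age is represented by 1 library, so age cannot be told apart from any other property of that pool.

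The zebrafish heart has 1 atrium and 1 ventricle, and the ventricle is a muscular chamber of trabeculated myocardium lined by endocardium and covered by epicardium. Its cardiomyocytes contract without rest, which they fuel mainly through mitochondrial oxidation of fatty acids, carbohydrates and lactate. The teleost lineage passed through an additional whole-genome duplication, and many genes that are single in mammals therefore exist in zebrafish as a pair of paralogs whose symbols end in a and b. The present values show which of these copies the adult ventricle transcribes.

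The deposited table gave 25573261 reads for NTG 4, 21871839 for NTG 2 and 20621770 for NTG 3. Levels are given as CPM (reads scaled to the same total in each library), which suits a comparison of 1 gene between libraries, and as TPM (reads divided by combined exon length and scaled to the same sum in each library), which suits a comparison between genes. A total of 12244 features reached 1 CPM in all 3 libraries, of which 11943 were protein-coding genes and 225 were lncRNAs. By mean TPM, 4562 features reached 10, 826 reached 100, 203 reached 1000 and 7 reached 10000. Reads shared between features were deposited as fractions. Features with a fractional count in at least 1 NTG library held 57.8% of the reads in NTG 4, 57.5% in NTG 2 and 56.4% in NTG 3. How many of these reads were themselves split was not measured. Levels of close paralogs with split reads are therefore uncertain to an unknown extent. Fractional counts were found for 18 of the 20 leading genes by CPM.

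The ventricular transcriptome was concentrated in few genes. The 10 most abundant genes held 19.2% of reads in NTG 4, 19.5% in NTG 2 and 18.8% in NTG 3, and the 50 most abundant held 34.5%, 34.1% and 33.6% in the same order. A fraction of 0.25 of all reads fell on 21 genes, 0.5 on 152 genes and 0.9 on 3133 genes. Among the leading 50 genes the highest library exceeded the lowest by a median of 1.32-fold, and 2 of them exceeded 2-fold. Of the 1139 genes averaging 100 CPM or more, 185 exceeded 2-fold. Of these 50 genes, 45 were also among the first 50 of NTG 4 alone, 44 among those of NTG 2 and 47 among those of NTG 3.

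Of the features analysed, which leave out mitochondrially encoded protein genes, the most abundant by reads was slc25a5, an ADP/ATP carrier of the inner mitochondrial membrane (chromosome 14, 32881627 to 32884069, minus strand, GRCz11). Its level was 30683 CPM in NTG 4, 31172 CPM in NTG 2 and 32004 CPM in NTG 3, so the libraries differed by 1.04-fold. The related carriers slc25a4 (158, 97.8 and 87.6 TPM in NTG 4, NTG 2 and NTG 3) and slc25a6 (at most 0.383 TPM) were far below slc25a5, which held 99.5%, 99.7% and 99.7% of the TPM summed over the 3 carriers. Ranked per length, the first place went to cmlc1, which encodes a cardiac myosin light chain (chromosome 5, 64167616 to 64168415). It was measured at 36835 TPM in NTG 4, 39341 TPM in NTG 2 and 32089 TPM in NTG 3. The next genes by TPM were slc25a5, the cardiac alpha-actin gene actc1a, the regulatory light chain gene myl7, gapdh of glycolysis and the myoglobin gene mb. Both rankings of 20 genes shared 15 genes, since short transcripts such as rplp1 and si:ch211-5k11.8 entered by TPM and long ones such as vmhcl by CPM.

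**Figure D1:**
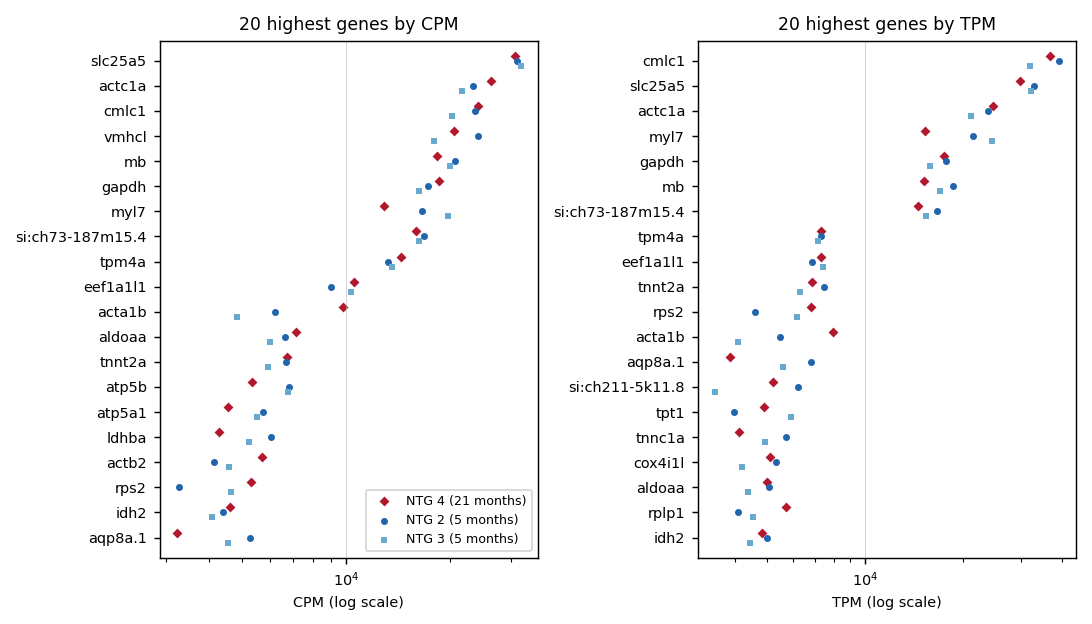
The 20 genes with the highest mean CPM (left) and the highest mean TPM (right) in NTG ventricles, on logarithmic axes. Each point is 1 library, NTG 4 of 21 months (red diamonds), NTG 2 (dark blue circles) and NTG 3 (light blue squares) of 5 months; slc25a5 lies at 30683 to 32004 CPM in all 3 libraries, whereas acta1b spreads from 4836 CPM in NTG 3 to 9796 CPM in NTG 4.

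Of the 20 leading genes by CPM, the skeletal alpha-actin gene acta1b had the widest range, with 9796 CPM in NTG 4, 6200 CPM in NTG 2 and 4836 CPM in NTG 3 (2.03-fold), so NTG 4 was above both 5-month libraries. In contrast, myl7 was at 12806 CPM in NTG 4, 16514 CPM in NTG 2 and 19728 CPM in NTG 3, and here NTG 4 was the lowest. The myosin heavy chain gene vmhcl was at 20440 CPM in NTG 4, 24099 CPM in NTG 2 and 17939 CPM in NTG 3, with NTG 4 between the 5-month libraries. Other genes were almost even, such as si:ch73-187m15.4, which has no other name in the reference, at 15867, 16719 and 16239 CPM and gapdh at 18468, 17207 and 16177 CPM in NTG 4, NTG 2 and NTG 3. The aquaporin gene aqp8a.1 ranked 20th by CPM, with 3226 CPM in NTG 4, 5253 CPM in NTG 2 and 4530 CPM in NTG 3. The endogenous tmem43 was counted on a feature of 474 bases on an unplaced scaffold, with split reads. It was at 17.4 CPM in NTG 4, 11.7 CPM in NTG 2 and 13.6 CPM in NTG 3, and at 45.1, 33.0 and 36.4 TPM. This feature is too short to encode the full protein that the study describes. Its place by TPM (1735th, against 5703rd by CPM) is therefore uncertain.

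The label of the tissue was checked against marker genes. The ventricular cardiomyocyte list held 6.35% of TPM in NTG 4, 7.41% in NTG 2 and 6.69% in NTG 3. Most of this came from cmlc1, myl7 and tnnt2a, with means of 36088, 20396 and 6878 TPM. The study describes the myl7 promoter as specific to cardiomyocytes, not to the ventricle. The share therefore marks cardiomyocytes and does not separate ventricle from atrium. The atrial heavy chain gene myh6 was at 1.81 TPM in NTG 4, 4.14 TPM in NTG 2 and 2.74 TPM in NTG 3, against 4166, 5346 and 3785 TPM of vmhcl in the same libraries. The natriuretic peptide gene nppa, listed here as an atrial marker, was however at 1187, 947 and 977 TPM. Pacemaker and neuronal genes summed to 1.84, 3.22 and 1.75 CPM, and none of the 13 found reached 1 CPM in all 3 libraries. The pacemaker channel gene hcn2b lay outside this list and was at 80.5, 221 and 51.6 CPM in NTG 4, NTG 2 and NTG 3. The fast skeletal muscle list held 1.18% of TPM in NTG 4, 0.889% in NTG 2 and 0.933% in NTG 3, and 9 of its 33 members reached 1 CPM in all libraries. Its leading members were acta1b, ckma, ckmb and casq1b, while the fast light chain genes mylpfa (0, 3 and 0 reads) and myl1 (0, 0 and 1 read) were near 0. Where 0 reads were counted, 3 reads would be 0.117 CPM in NTG 4, 0.137 CPM in NTG 2 and 0.145 CPM in NTG 3.

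Markers of other cell types were present at lower levels. The erythrocyte list held 0.983% of TPM in NTG 4, 1.16% in NTG 2 and 0.842% in NTG 3, led by the beta-globin genes ba1 and ba1l and the alpha-globin gene hbaa1. A further alpha-globin gene of that kind, si:ch211-5k11.8 (hbaa1.2 by a RefSeq synonym), lay outside the list and was alone at 5216, 6206 and 3462 TPM. Fibroblast and matrix genes held 0.0792%, 0.109% and 0.162%, endothelial and endocardial genes 0.0721%, 0.0506% and 0.0687%, and macrophage genes 0.0525%, 0.0476% and 0.0558%. Epicardial genes were even in sum, at 0.0253%, 0.0250% and 0.0262%, but not gene by gene. The leading members podxl (101.2, 147.3 and 123.6 TPM in NTG 4, NTG 2 and NTG 3) and aldh1a2 (128.6, 72.7 and 101.5 TPM) differed in opposite directions. The lymphocyte list summed to 10.7, 7.32 and 11.5 CPM, and its only member at 1 CPM in all 3 libraries was cd3eap, which encodes an RNA polymerase I subunit and not a lymphocyte protein. In bulk tissue, fewer cells of a type and less RNA per cell cannot be told apart.

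**Figure D2:**
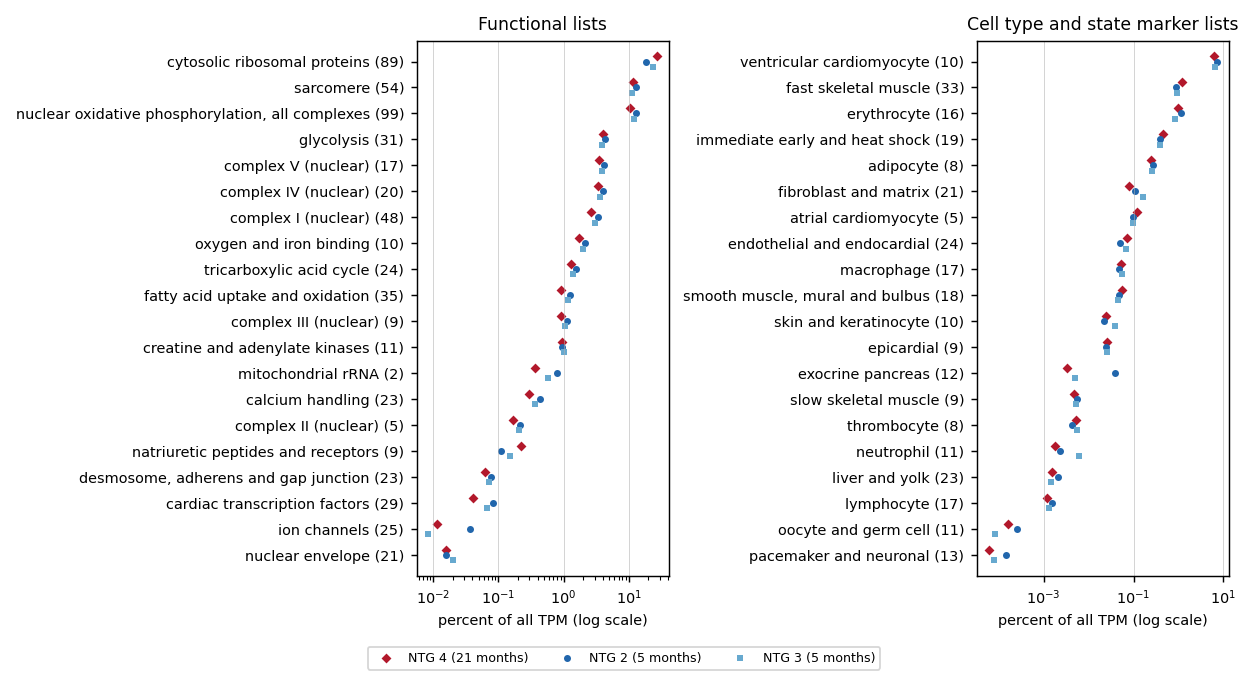
Percent of all TPM held by each functional list (left) and each marker list (right), on logarithmic axes, with the number of genes found in parentheses. Each point is 1 library (NTG 4 of 21 months as red diamonds, NTG 2 and NTG 3 of 5 months as blue circles and squares), and lists may share genes; cytosolic ribosomal proteins lead with 27.3% in NTG 4, 18.1% in NTG 2 and 23.2% in NTG 3.

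By function, cytosolic ribosomal proteins, the sarcomere and nuclear-encoded subunits of oxidative phosphorylation took up the largest shares of the lists examined. The 89 ribosomal protein genes held 22.9 ± 4.58% of TPM (mean ± SD, n = 3 here and below), led by rps2 with 6818, 4595 and 6195 TPM in NTG 4, NTG 2 and NTG 3. The 54 sarcomere genes held 11.9 ± 0.788%, and cmlc1, actc1a, myl7 and the tropomyosin gene tpm4a were their leading members. The 99 nuclear genes of the respiratory chain and ATP synthase held 11.8 ± 1.19%. Within them, complex V held 3.85 ± 0.372%, complex IV 3.67 ± 0.367%, complex I 3.01 ± 0.324%, complex III 1.04 ± 0.114% and complex II 0.198 ± 0.0239%. The highest members were atp5b of ATP synthase at 4307 ± 727 TPM and cox4i1l of cytochrome c oxidase at 4873 ± 604 TPM. Those of the complex I, III and II lists were ndufa4l at 3898 ± 570 TPM, uqcrb of the bc1 complex and sdhc of succinate dehydrogenase. Genes were assigned to complexes by symbol alone. The place of ndufa4l under complex I was not checked, and the shares and order of complexes I, IV and V depend on it.

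Fuel genes were abundant throughout. Glycolysis held 4.07 ± 0.242% of TPM, led by gapdh, the aldolase gene aldoaa, the lactate dehydrogenase gene ldhba and the enolase gene eno3. The tricarboxylic acid cycle held 1.43 ± 0.119%, led by idh2 and mdh2. Fatty acid uptake and oxidation held 1.12 ± 0.179%, and its first members were the binding proteins fabp3 (2508, 3051 and 3137 TPM in NTG 4, NTG 2 and NTG 3) and fabp11a (2397, 2721 and 2490 TPM). Creatine and adenylate kinases, which buffer ATP in muscle, held 0.970 ± 0.0466%, led by ckma and ak1. The oxygen and iron binding list held 1.95 ± 0.201%, of which mb (16891 ± 1715 TPM) and the ferritin gene fth1a were the leading members.

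Excitation and regulatory genes were far less abundant. Calcium handling held 0.369 ± 0.0698% of TPM, with the calcium pump gene atp2a2a at 581 TPM in NTG 4, 1216 TPM in NTG 2 and 705 TPM in NTG 3, followed by calm2b, pln and casq2. Junction genes held 0.0702 ± 0.00763%, led by ctnnb1 and cdh2. Cardiac transcription factors held 0.0639 ± 0.0207%, led by nkx2.5 (128, 171 and 157 TPM in NTG 4, NTG 2 and NTG 3), hand2, gata5 and irx1a. Ion channels held 0.0189 ± 0.0157%, an SD almost as large as the mean. Its highest member kcnh6a, an ERG-type potassium channel of repolarization, was at 41.4 TPM in NTG 4, 241 TPM in NTG 2 and 24.1 TPM in NTG 3. The second, the pacemaker channel gene hcn2b, followed the same order of libraries with 23.6, 70.6 and 15.7 TPM.

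Usage of a/b pairs was examined in 1290 pairs of protein-coding genes with a summed mean of at least 5 TPM. Pairs were taken by symbol alone, as names that differ only by a final a or b without a member ending in c. Whether the members of each pair are duplicates of the same gene was not checked. The same member held at least 90% of the summed TPM in every library in 470 pairs (36.4%), and this was the a member in 263 and the b member in 207. In 173 pairs (13.4%) neither member was as much as 2-fold above the other in any library. The higher member of a pair held a median of 85.0%. The share of the a member ranged by a median of 5.65 percentage points over the 3 libraries and by under 10 points in 883 pairs. By their definition, the 470 1-sided pairs can range by 10 points at most, so these values are no separate measure of reproducibility. The leading member nevertheless differed between libraries in 125 pairs (9.69%). With 1 library left out this count was 95 without NTG 2, 71 without NTG 3 and 86 without NTG 4, where fewer libraries are compared.

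Several abundant contractile pairs were 1-sided. The a member actc1a held 99.9% of its pair in all 3 libraries, with a mean of 23221 TPM against 20.2 TPM of actc1b. Similarly, tpm4a held over 99.9%, and the troponin C gene tnnc1a held 99.6% in NTG 4, 99.7% in NTG 2 and 99.5% in NTG 3. In skeletal alpha-actin the b copy led, as acta1b held 94.0 ± 1.47% of its pair. Among metabolic genes ldhba held 99.9 ± 0.0791% and fabp11a 100% after rounding, while the b members slc25a3b (mitochondrial phosphate carrier, 99.99%), tpi1b (triosephosphate isomerase, 98.1%) and ckbb (creatine kinase, 97.8%) led theirs. Other 1-sided pairs with high levels were rps8a, faua and fth1a on the a side and s100a10b, calm2b, pdlim5b and mustn1b on the b side.

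Not all abundant pairs were 1-sided. The aldolase gene aldoaa held 68.5% of its pair in NTG 4, 65.6% in NTG 2 and 66.3% in NTG 3, with aldoab as the remainder. The respiratory chain subunit gene cox5aa held 66.5%, 64.3% and 59.0%, and atp5g3b held 81.2 ± 3.95%. The muscle creatine kinase gene ckma held 94.5% of its pair in NTG 4, 90.2% in NTG 2 and 80.5% in NTG 3. Its partner ckmb was at 203 TPM in NTG 4, 313 TPM in NTG 2 and 991 TPM in NTG 3, so the lower share of ckma in NTG 3 went along with a high level of ckmb there. Reads of both copies were in part split.

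**Figure D3:**
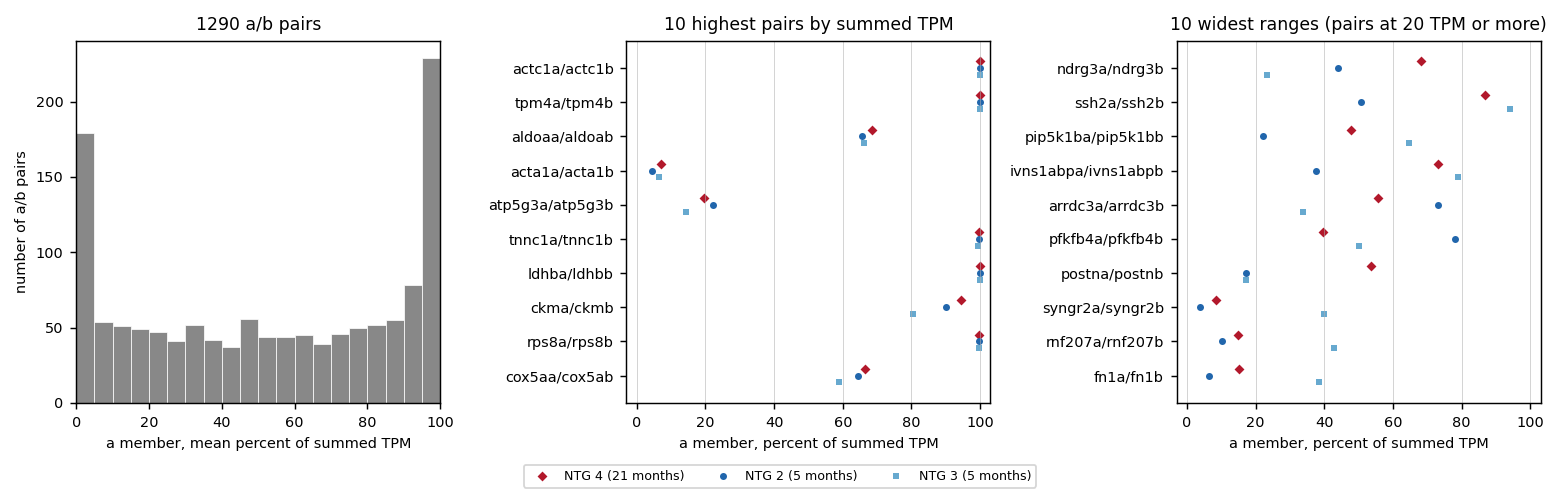
Usage of a/b pairs, taken by symbol alone, in NTG ventricles. Left, number of the 1290 pairs by the mean percent of the summed TPM held by the a member; middle and right, that percent in each library (NTG 4 of 21 months as red diamonds, NTG 2 and NTG 3 of 5 months as blue circles and squares) for the 10 most abundant pairs and for the 10 pairs of at least 20 TPM whose share ranged most, from 23.3% in NTG 3 to 68.2% in NTG 4 for ndrg3a.

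Some pairs changed their balance from pool to pool. Of the 1290 pairs, 36 ranged by over 30 points, and 18 did without NTG 2, 15 without NTG 3 and 22 without NTG 4. The share of ndrg3a was 68.2% in NTG 4, 44.0% in NTG 2 and 23.3% in NTG 3, and that of the phosphatase gene ssh2a was 86.9%, 50.6% and 94.0%. The periostin gene postna, of the extracellular matrix, held 53.7% in NTG 4, against 17.3% in NTG 2 and 17.1% in NTG 3. The fibronectin gene fn1a held 15.2%, 6.55% and 38.6%. The most abundant pair with such a range was that of the regulatory light chain genes myl9a and myl9b of smooth muscle, in which myl9a held 87.0% in NTG 4, 71.7% in NTG 2 and 57.0% in NTG 3. These pairs were chosen by the width of their range, so the width itself is no result.

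Larger families were described in the same way, with 169 members found in 39 families. In 13 families 1 gene held at least 90% of the summed TPM in every library, and in 38 the same gene led in all libraries. The exception was the desmoplakin pair, in which dspa held 63.1% in NTG 4, 66.8% in NTG 2 and 45.8% in NTG 3, with the remainder on wu:fi04e12 (dspb in RefSeq). Cardiac and slow myosin heavy chains were led by vmhcl with 93.6%, 92.8% and 93.2%, and its neighbour vmhc followed with 5.30%, 5.59% and 5.87%. Both lie on chromosome 2, vmhcl at 24274324 to 24289641 and vmhc at 24256521 to 24269913, and part of their reads were split. On average, the desmin gene desma (99.99%), tnnt2a of troponin T (99.98%), the plakoglobin gene jupa (99.9%) and pdha1a of pyruvate dehydrogenase (99.97%) stood nearly alone in their families.

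In other families several genes contributed. The slow-type troponin I family was led by tnni1b with 75.4% in NTG 4, 66.2% in NTG 2 and 61.1% in NTG 3, followed by zgc:101560 (tnni4a in RefSeq) with 23.9%, 26.7% and 37.8%. A further member, zgc:112242 (tnni4b.3), was at 255 TPM in NTG 2 but at 8.62 TPM in NTG 4 and 24.0 TPM in NTG 3. The giant titin genes ttn.1 and ttn.2 were close to each other, with 57.9 ± 5.09% on ttn.1. The mitochondrial creatine kinases ckmt2a (57.9 ± 7.89%) and ckmt2b (42.0 ± 7.93%) and the fatty acid binding proteins fabp3 (52.9 ± 2.15%) and fabp11a (46.5 ± 2.46%) were shared likewise. Of the COX4 genes cox4i1l held 62.0 ± 5.38% and cox4i1 37.1 ± 4.97%. Among ryanodine receptors, the calcium release channels, ryr2b led with 64.2 ± 6.12%, while ryr2a was at 0.125 TPM or less in every library. The factors gata5 (79.9 ± 2.02%), gata6 (19.3 ± 1.90%) and gata4 (0.828 ± 0.245%) kept their order in every library.

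Of the 39 families, natriuretic peptides had the widest range of a member's share. The share of nppa was 54.3% in NTG 4, 87.1% in NTG 2 and 65.2% in NTG 3. This followed nppb, a marker of haemodynamic load, which was at 671 CPM in NTG 4, 86.1 CPM in NTG 2 and 339 CPM in NTG 3. Its counts were whole numbers in every library. Thus nppb was 7.79-fold apart between the highest and lowest library, whereas nppa was within 1187 and 947 TPM. The pyruvate dehydrogenase kinase gene pdk2b, which restrains glucose oxidation, was at 339 CPM in NTG 4, 1993 CPM in NTG 2 and 245 CPM in NTG 3, and its relative pdk2a was highest in NTG 2 too, with 253 TPM against 74.4 TPM in NTG 4 and 97.7 TPM in NTG 3.

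How far the 3 pools differ sets the precision of any value above. Differences between libraries are given as log2 differences of CPM on library sizes scaled by TMM, a scaling that sets the bulk of genes equal, for 14020 genes above a minimum count. On total reads the median of all tested genes was -0.09 for NTG 4 minus NTG 2, -0.16 for NTG 4 minus NTG 3 and 0.07 for NTG 3 minus NTG 2 on the log2 scale, against 0.008, -0.002 and 0.012 with TMM. A difference of at least 2-fold was seen for 1790 genes (12.8%) between NTG 4 and NTG 2, for 1884 (13.4%) between NTG 4 and NTG 3, and for 2239 (16.0%) between NTG 3 and NTG 2. By direction, 6.46% of the tested genes were higher and 6.31% lower in NTG 4 than in NTG 2. In NTG 4 relative to NTG 3, 6.09% were higher and 7.35% lower, and in NTG 3 relative to NTG 2, 8.67% were higher and 7.3% lower. The pair of 5-month libraries therefore had more genes apart than either pair that spans the ages. Across genes, which are not independent replicates, Pearson's correlation of log2 CPM was 0.96 for NTG 4 with NTG 2, 0.95 for NTG 4 with NTG 3 and 0.94 for NTG 3 with NTG 2. The coefficient of variation between libraries beyond counting error, estimated by edgeR, was 0.335 in common and 0.322 for the median gene.

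Abundant genes were described by the ratio of the highest to the lowest library. Among the 1139 genes averaging 100 CPM or more, 185 exceeded 2-fold over the 3 libraries, 32 exceeded 4-fold and 12 exceeded 8-fold. The most even ones on the TMM scale were s100a10b (846, 910 and 941 CPM in NTG 4, NTG 2 and NTG 3), laptm4a of lysosomes (175, 188 and 194 CPM) and marcksl1b (150, 162 and 167 CPM). In addition, the antigen-presentation gene cd74a was at 227, 237 and 249 CPM and suclg1 of the tricarboxylic acid cycle at 549, 578 and 617 CPM.

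The libraries of 21 months and 5 months were compared gene by gene. With the quasi-likelihood test of edgeR, 0 of 14020 genes (0%) reached an adjusted p under 0.05, and 400 (2.85%) had an unadjusted p under 0.05. With a single library of 21 months, the test assumes that this age varies as the 5-month libraries do. Its power is low, so the lack of calls does not show that the ages are alike. The smallest adjusted p, 0.31, belonged to chst1, which encodes a sulfotransferase. Its level was 47.6 CPM in NTG 4, 3.66 CPM in NTG 2 and 3.69 CPM in NTG 3, a log2 fold change of 3.82. DESeq2 called 7 genes, whereas limma-voom called 0, with 422 at an unadjusted p under 0.05. The 7 genes were chst1, nr4a3, c2cd4a, zgc:86709 and ass1, higher in NTG 4, and si:dkey-222n6.2 and LOC100006250, lower in NTG 4. For 4920 genes (35.1%) the level in NTG 4 lay between those of NTG 2 and NTG 3.

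The genes that set NTG 4 apart from both 5-month libraries were fewer than those that set apart either of these. A distance of at least 2-fold from both others was seen for 478 genes (3.41%) in NTG 4, for 782 (5.58%) in NTG 2 and for 804 (5.73%) in NTG 3. Above both others were 1.52% of the tested genes in NTG 4, 2.51% in NTG 2 and 2.99% in NTG 3, and below both were 1.89%, 3.07% and 2.75%. Those named below were chosen by this distance, and their values are descriptions. In NTG 4 the orphan nuclear receptor gene nr4a3 was at 443 CPM, against 51.9 CPM in NTG 2 and 59.8 CPM in NTG 3, and c2cd4a at 69.3 CPM, against 5.99 and 10.3 CPM. The progranulin-type gene grn1 was at 36.5 CPM in NTG 4, against 7.21 and 9.04 CPM, and flt1, a receptor of vascular endothelial growth factors, at 155 CPM, against 37.5 and 42.1 CPM in NTG 2 and NTG 3. The tight junction gene cldn11a followed at a lower level. Conversely, the linker histone gene h1f0 was at 29.7 CPM in NTG 4, against 104 CPM in NTG 2 and 162 CPM in NTG 3, and slc37a4b, rxrgb, znf217, zbtb33 and ing4 were at 1.84 to 8.06 CPM in NTG 4, below both others. A cardiac actin gene outside the naming rule, zgc:86709 (actc2 in RefSeq), was chosen after its values were seen. It was at 1319 CPM in NTG 4, against 247 CPM in NTG 2 and 316 CPM in NTG 3, with split reads.

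In NTG 2 a different set stood out. The transcriptional repressor gene zbtb16a was at 9.93 CPM in NTG 4, 196 CPM in NTG 2 and 10.0 CPM in NTG 3. The elongation factor copy eef1a1b was at 0.489, 22.2 and 0.921 CPM, although the main elongation factor gene eef1a1l1 was even at 10482, 9014 and 10285 CPM. The genes erich3, zdhhc2 and the keratin gene krt5 were also highest in NTG 2. The pancreatic chymotrypsinogen gene ctrb1 was at 14.9 CPM in NTG 4, 231 CPM in NTG 2 and 29.1 CPM in NTG 3, while the other members of the exocrine pancreas list had at most 213 reads in any library, which was the count of cpa5 in NTG 2. The lowest genes in NTG 2 included atf3, fosb, fosab and dusp2, all induced within minutes to hours of stimulation, together with znf326 and ankrd9. For atf3, NTG 4 had 204 CPM, NTG 2 had 3.98 CPM and NTG 3 had 109 CPM.

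In NTG 3 the named gene farthest above both other libraries was irf1b, which encodes an interferon regulatory factor. It was at 4.38 CPM in NTG 4, 2.74 CPM in NTG 2 and 115 CPM in NTG 3. The guanylate-binding protein genes gbp2 (2.93, 2.79 and 33.2 CPM) and gbp1 (9.11, 5.81 and 56.6 CPM) followed the same order. They neighbour each other on chromosome 2, gbp2 at 42005067 to 42017579 and gbp1 at 42020915 to 42035439. The second muscle pyruvate kinase gene pkmb was at 30.9, 6.72 and 262 CPM, and held 14.8% of its pair in NTG 3 against 1.95% in NTG 4 and 0.399% in NTG 2. The metabolic genes fuom and hpgd were also highest in NTG 3. Lowest there was the small heat shock protein gene hspb6, with 371 CPM in NTG 4, 730 CPM in NTG 2 and 42.7 CPM in NTG 3, as well as nell2a, the histamine receptor gene hrh3, the actinin gene actn3a, slc20a1a and epdl1.

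**Figure D4:**
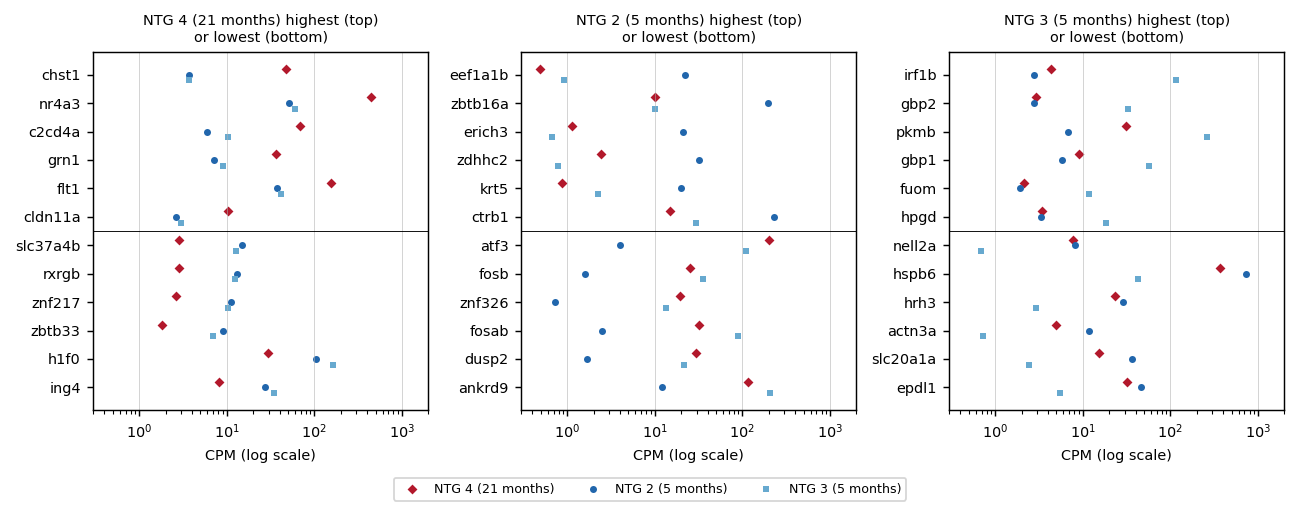
CPM, on logarithmic axes, of the 6 genes highest (above the line) and the 6 lowest (below it) in NTG 4 of 21 months (left), NTG 2 (middle) and NTG 3 (right) of 5 months, relative to the nearer of the other libraries. Each point is 1 library; for atf3 NTG 2 lies at 3.98 CPM, with 204 CPM in NTG 4 and 109 CPM in NTG 3.

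Whole gene lists moved with the libraries. Ribosomal protein genes were highest in NTG 4 for 82 of 87 tested members, against 32.8% of all tested genes, and lowest in NTG 2 for 83, against 34.4% of all. Their median log2 difference was 0.82 between NTG 4 and NTG 2, 0.43 between NTG 4 and NTG 3 and 0.38 between NTG 3 and NTG 2, beside 0.008, -0.002 and 0.012 over all tested genes. For example, rpl26 was at 2370 CPM in NTG 4, 1271 CPM in NTG 2 and 1692 CPM in NTG 3, and rpl7a at 3727, 2138 and 2938 CPM. On total reads, the log2 difference of their summed CPM was 0.28 between NTG 4 and NTG 3 and 0.44 between NTG 3 and NTG 2, against 0.44 and 0.37 with TMM, so which of these differences was larger depended on the scaling. Mitochondrial rRNA followed the opposite order, with 3609 CPM in NTG 4, 7320 CPM in NTG 2 and 5602 CPM in NTG 3.

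Immediate early and heat shock genes, which respond rapidly to stimulation and stress, were lowest in NTG 2 for 15 of 17 tested members, against 34.4% of all tested genes. Their median log2 difference was 1.84 between NTG 4 and NTG 2, -0.23 between NTG 4 and NTG 3 and 2.1 between NTG 3 and NTG 2. For jun the levels were 363 CPM in NTG 4, 109 CPM in NTG 2 and 514 CPM in NTG 3, for fosab 32.1, 2.47 and 90.1 CPM, for egr1 23.2, 7.64 and 109 CPM and for nr4a1 232, 34.7 and 309 CPM. By contrast, hspb1, the most abundant member, was at 2976 CPM in NTG 4, 2701 CPM in NTG 2 and 2265 CPM in NTG 3. NTG 2 was the lowest library also for btg2 (141, 22.4 and 214 CPM), gadd45ga (287, 35.7 and 171 CPM) and the flow-responsive endothelial gene klf2a (220, 40.4 and 153 CPM), genes chosen after their values were seen or as list members.

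**Figure D5:**
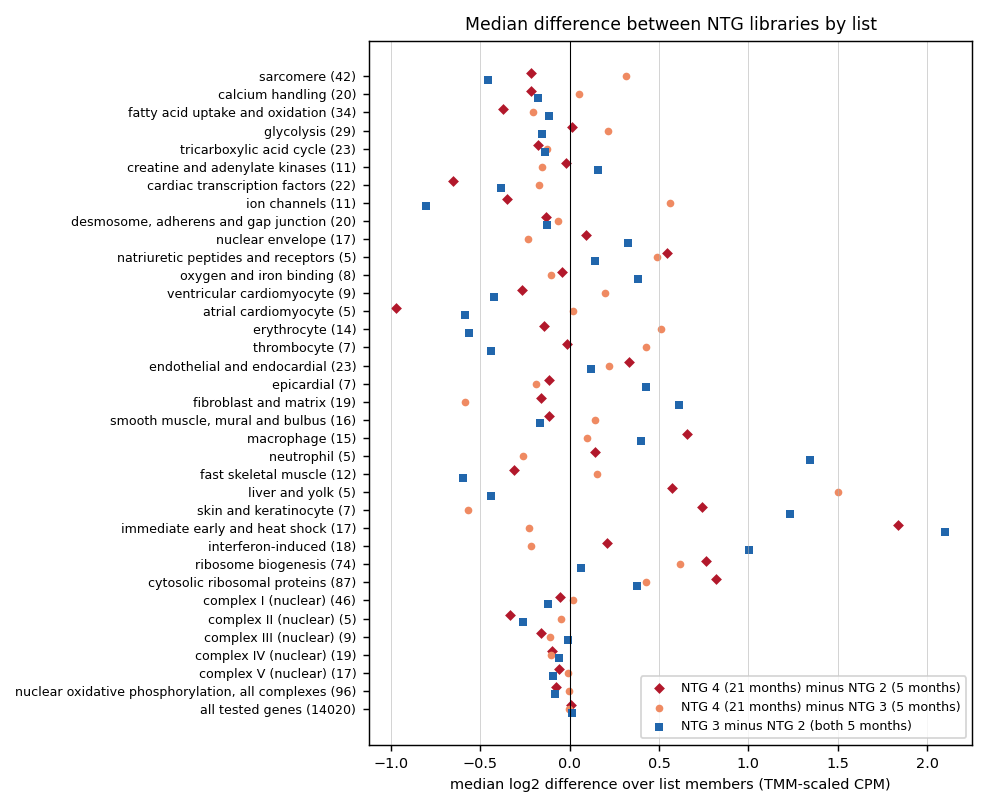
Median log2 difference of TMM-scaled CPM over the tested members of each list (number in parentheses, lists with at least 5), for NTG 4 of 21 months minus NTG 2 (red diamonds) and minus NTG 3 (orange circles) of 5 months, and for NTG 3 minus NTG 2 (blue squares). Immediate early and heat shock genes lie at 1.84 and 2.1 in the differences to NTG 2 and at -0.23 between NTG 4 and NTG 3, and all tested genes lie near 0.

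Markers of cell types differed in part as well. Fibroblast and matrix genes were highest in NTG 3 for 15 of 19 tested members, against 34.0% of all genes. The matrix gene sparc was at 239 CPM in NTG 4, 418 CPM in NTG 2 and 637 CPM in NTG 3, col1a1a of collagen type I at 435, 499 and 796 CPM, and postnb at 37.3, 94.9 and 248 CPM. Macrophage genes were highest in NTG 4 for 12 of 15 with TMM, against 32.8% of all genes, although cd74a was even. Their median log2 difference between NTG 4 and NTG 3 was only 0.096. On total reads their summed CPM was 532 in NTG 4, 440 in NTG 2 and 534 in NTG 3, so the lead over NTG 3 depended on the scaling. Endothelial genes were lowest in NTG 2 for 14 of 23, against 34.4% of all genes. Of the 23, 10 were highest in NTG 4, against 32.8% of all genes, and 8 in NTG 3, against 34.0%. Leading members differed, as egfl7 was at 185 CPM in NTG 4, against 76.5 CPM in NTG 2 and 81.9 CPM in NTG 3. In the same order kdrl was nearly even at 201, 185 and 206 CPM, and tek was at 179, 152 and 237 CPM. All 14 tested erythrocyte genes were lowest in NTG 3, against 33.3% of all genes. Whether the number of such cells in each pool accounts for other differences was not tested.

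Sarcomere genes were highest in NTG 2 for 24 of 42, against 33.2% of all genes, and lowest in NTG 3 for 28, against 33.3%. The leading members cmlc1, actc1a and tpm4a were however highest in NTG 4 on the TMM scale, and myl7 was highest in NTG 3. The median log2 difference over the sarcomere list was -0.22 between NTG 4 and NTG 2, 0.31 between NTG 4 and NTG 3 and -0.46 between NTG 3 and NTG 2. Nuclear genes of oxidative phosphorylation differed by medians of -0.08, -0.01 and -0.08 in these comparisons. Cardiac transcription factors were highest in NTG 2 for 15 of 22, against 33.2% of all genes, and lowest in NTG 4 for 13, against 32.3%. The factor hand2 was at 85.4 CPM in NTG 4, 251 CPM in NTG 2 and 215 CPM in NTG 3, and irx1a at 47.0, 179 and 117 CPM. Fatty acid genes were highest in NTG 2 for 21 of 34 (33.2% of all genes) and lowest in NTG 4 for 25 (32.3%), with a median log2 difference of -0.38 between NTG 4 and NTG 2 and of -0.21 between NTG 4 and NTG 3. Since these lists were chosen with earlier results of the data known and each side holds 1 library, the counts describe the pools and carry no test.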

How the data were processed

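RNA-seq of pooled zebrafish ventricles (TruSeq Stranded mRNA, single-end reads of 75 nt) was analysed from a deposited table of expected counts per gene. The authors used Cutadapt 2.5 for trimming, STAR 2.7.2b for alignment (GRCz11) and featureCounts 1.6.4 for counting. Reads on several features were deposited as fractions, and the handling of multiple alignments and of strand is not given in the sources used here. Of 39289 features, 25034 had reads in an NTG library. CPM and TPM were computed from the values as deposited. For the tests, counts were rounded, scaled by TMM, filtered with filterByExpr (14020 genes, 72.6% with whole counts within 1e-09) and analysed with edgeR 4.0.16 in R 4.3.3, with DESeq2 1.42.0 and limma 3.58.1 as alternatives. Calls required a Benjamini-Hochberg adjusted p under 0.05 with a log2 fold change of 0.05 or more in either direction. The fit was run on simulated data, where it missed most of the changes put in and also called some unchanged genes. Log2 differences used a prior count of 2.

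The gene lists and families had 620 and 186 entries; of the list entries, 568 matched by symbol, 32 by gene ID through RefSeq (GRCz12tu) and 20 not. Members and lists were chosen with earlier results of these data known. Mitochondrially encoded protein genes were not among the features analysed here, and no feature was removed before CPM and TPM were computed. Shares and ranks are therefore relative to totals without these genes. Named were the 20 leading genes by CPM and TPM, up to 4 leading members of a list, members of families, the 10 highest a/b pairs, 8 1-sided pairs for each member, the 6 highest and 6 lowest genes of each library (mean of at least 5 CPM) and tmem43. Other genes were chosen after their values were seen. P-values measure the spread between pools. Depth was 20621770 to 25573261 reads, and floors of 3 counts cover counting error only.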

Additional observations from a re-analysis of the deposited data

How the results depend on the processing

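Of the leading 20 genes by CPM, 18 to 20 stayed among the first 20 under TMM scaling, without tRNA, rRNA and mitochondrially encoded genes, and when 1 library was left out (18 to 19). The number of detected genes was 8125 at 5 CPM, 13795 at 0.5 CPM and 12610 to 12705 without 1 library. The share of reads in the 50 leading genes (34.07%) was 33.87% to 34.32% without 1 library, and was 19.16% for the 10 and 43.23% for the 100 leading genes. Of a/b pairs, 247 of 650 were 1-sided at a summed level of at least 20 TPM, 297 of 781 among pairs with whole counts, and 496 to 503 without 1 library. Without a filter on low counts, 5500 (22.7%) of genes were 2-fold apart between NTG 4 and NTG 2, 6151 between NTG 4 and NTG 3 and 6750 between NTG 3 and NTG 2, and at a mean of at least 5 CPM 873, 863 and 1152, so the order of the first 2 pairs changed and the 5-month pair remained the highest. DESeq2 called 7 genes between the ages, and 0 were called with every other alternative, including whole counts only, which was chosen after seeing the data. Without NTG 2 or NTG 3 the log2 fold change of chst1 was 3.77 to 3.82. On total reads the summed sarcomere genes differed by -0.04 between NTG 4 and NTG 2 and by 0.12 between NTG 4 and NTG 3 on the log2 scale, but by 0.05 and 0.28 under TMM scaling, and those of oxidative phosphorylation by -0.15 between NTG 4 and NTG 3, but by 0.00 under TMM scaling. No paired analysis was possible because the comparison lies within 1 genotype, whose libraries each carry a different replicate number.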

Other observations

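Among lncRNAs, LOC795545 was the most abundant, with 1861 CPM in NTG 4, 1231 CPM in NTG 2 and 1296 CPM in NTG 3. It lies on chromosome 18 at 7565995 to 7567957 and ranked 66th of all features by TPM. Its neighbour LOC100535167, at 7584482 to 7587290, was uneven, with 212 CPM in NTG 4, 145 CPM in NTG 2 and 10.96 CPM in NTG 3. The lncRNA LOC110439915 was highest in NTG 3, with 248 CPM in NTG 4, 200 CPM in NTG 2 and 582 CPM in NTG 3. Reads of all 3 were in part split.

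Some genes outside the naming rule drew attention by their level or spread and were chosen after their values were seen. The gene f8, named for coagulation factor VIII, ranked 27th by CPM, with 3316, 3688 and 4230 CPM in NTG 4, NTG 2 and NTG 3, but 257th by TPM, and had split reads. The gene fkbp5, an immunophilin gene induced by glucocorticoids, was at 1523 CPM in NTG 4, 1236 CPM in NTG 2 and 344 CPM in NTG 3. The gene zgc:122979 was at 633 CPM in NTG 4, 167 CPM in NTG 2 and 36.66 CPM in NTG 3. The lysozyme gene lyz, a neutrophil marker, was at 0.117, 2.01 and 9.55 CPM.

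Lists on ribosome biogenesis and on interferon-induced genes were added after the values were seen. Of 74 tested ribosome biogenesis genes, 68 were highest in NTG 4, against 32.8% of all genes. They were led by ncl, npm1a (86.4, 51.9 and 48.2 TPM in NTG 4, NTG 2 and NTG 3), ddx21 and fbl (54.1, 30.4 and 38.0 TPM). Of 18 tested interferon-induced genes, 10 were highest in NTG 3, against 34.0% of all genes, and 13 lowest in NTG 2, against 34.4%, and the most abundant, b2m, was at 618, 460 and 664 TPM.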
